A study of Bos taurus with 14 samples.

Results

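The 5 inflammation-induced miRNAs bta-miR-155, bta-miR-146a, bta-miR-146b, bta-miR-132 and bta-miR-212 were chosen by name from the count table of peripheral white blood cell (PWBC) small RNA, as miRNAs known to be induced by inflammation, and the rule uses no measured value. All 5 were listed and had a count, among 1030 mature names of which 614 had a count. Of the 341 miRNAs that passed the filter on low values (1 or more counts per 1000000 counts of the library, CPM, in 7 or more heifers), 4 were members. bta-miR-212 did not pass the filter.

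PWBC were isolated from blood drawn at weaning from 14 Angus-Simmental crossbred heifers, and 1 small RNA library was sequenced per animal. Pregnancy was determined after the later breeding season: 7 heifers became pregnant to artificial insemination (AI) and form the fertile group (FH), and 7 form the subfertile group (SFH), labelled as not pregnant to AI and described in the methods as not pregnant after AI and natural service. Blood was thus taken before the outcome was known, no heifer received an inflammatory stimulus that the labels name, and PWBC are a mixture of neutrophils, monocytes and lymphocytes. In such bulk samples, fewer cells of a type and less RNA per cell cannot be told apart.

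miR-155, miR-146a, miR-146b, miR-132 and miR-212 are known as miRNAs whose transcription rises when leukocytes meet microbial products or inflammatory cytokines. miR-155, made from a non-coding transcript in activated lymphocytes and macrophages, targets the phosphatase SHIP1 and the cytokine signalling inhibitor SOCS1, and is regarded as a promoter of the response. miR-146a and miR-146b, which come from separate genes and have the same seed, target the signalling adaptors TRAF6 and IRAK1 of the Toll-like receptor pathway and are regarded as brakes on NF-kB. miR-132 and miR-212 are neighbours on 1 primary transcript that responds to CREB, and they also share their seed. In the RefSeq annotation of the cattle genome, all 5 precursor genes were found by name and MIR132 and MIR212 stood next to each other, while none overlapped another annotated gene.

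Each library held between 1754971 and 5468341 counts on mature miRNAs. Where a miRNA had a count of 0, up to 3 counts, or 0.549 to 1.71 CPM, remained possible, a limit that covers counting error only. Of the markers of all leukocytes, bta-miR-142-5p was at 5186 to 20623 CPM and bta-miR-142-3p, from the same precursor, at 51.1 to 375 CPM. The neutrophil and monocyte marker bta-miR-223 was at 11921 to 26640 CPM. Of the lymphocyte markers, bta-miR-150 was at 34305 to 92321 CPM, bta-miR-342 at 8470 to 15731 CPM and bta-miR-181a at 11417 to 27012 CPM. Their log2 fold changes of SFH relative to FH were −0.08, −0.14 and 0.33 in this order (edgeR, adjusted p = 0.977, 0.947 and 0.890), so that bta-miR-181a went the other way by estimate. The summed red cell markers (bta-miR-451, bta-miR-486 and bta-miR-144) were at 1574 to 3713 CPM in FH and 1463 to 9236 CPM in SFH, with bta-miR-144 at 0 in every heifer. Markers of epithelium (bta-miR-200b and bta-miR-205, summed) and of liver (bta-miR-122) did not exceed 4.65 CPM in any heifer. Other miRNAs known from epithelia, bta-miR-200c and bta-miR-375, were not on the list and had an average log2 CPM of 7.46 and 11.38 in the edgeR fit. These 2 names were added once the values had been seen. Summed markers of platelets and endothelium were at 22.4 to 68.3 CPM in FH and 4.52 to 47.0 CPM in SFH, and those of muscle reached 68.7 CPM in FH and 232 CPM in SFH.

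bta-miR-155 was by far the most abundant of the 5 miRNAs and had the smallest spread between heifers, whereas bta-miR-132 was the member whose groups were most separated. In the fit of all miRNAs, 0 of the 4 tested members passed the thresholds of the study (p of at most 0.05 before adjustment together with a log2 fold change of 0.5 or more in either direction), against 3.81% of the 341 miRNAs tested. The median log2 fold change (SFH relative to FH) of the 4 members was 0.33, beside 0.06 over all miRNAs tested, with bta-miR-155 lower and the other 3 higher in SFH by estimate. The smallest adjusted p-value over all 341 miRNAs was 0.142 by edgeR's quasi-likelihood test with Benjamini-Hochberg adjustment, so that 0 miRNAs were called after adjustment. At an unadjusted p of at most 0.05 there were 20, and DESeq2 gave 2 after adjustment.

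bta-miR-155, the promoter of the response among the members, ranked 31 by mean level among the tested miRNAs and made up 0.799% of the counts of all mature miRNAs. Its level was 6261 CPM in the lowest, 8524 CPM in the median and 10170 CPM in the highest FH heifer, and 6368, 7384 and 9057 CPM in the lowest, median and highest SFH heifer. The groups overlapped over most of their range, with 6 of 7 SFH heifers below the FH median and 2 FH heifers (22 and 24) above every SFH heifer. Means were 8522 ± 1276 CPM for FH and 7532 ± 1031 CPM for SFH (SD, n = 7 heifers each). The log2 fold change was −0.25 with a standard error of 0.15 (edgeR, adjusted p = 0.890). An exact two-sided permutation test over all 3432 arrangements of the heifers gave a difference of −0.24 in mean log2(TMM CPM + 0.5), where TMM CPM are CPM rescaled by edgeR's TMM factor of each library, with p = 0.0787, or 0.702 after adjustment over all miRNAs tested. Without FH heifer 25, the lowest of its group, the difference was −0.31 (exact permutation test, p = 0.0262), and without SFH heifer 30, the highest of its group, −0.30 (exact permutation test, p = 0.0402). The call at 0.05 without adjustment therefore rested on which heifers were included.

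The level of bta-miR-155 was also among the steadiest of all miRNAs. Its highest heifer was 1.62-fold above its lowest, and its coefficient of variation over the 14 heifers was 15.3%, against a median of 55.4% over the 341 miRNAs. A lower coefficient of variation was found for 2.64% of the tested miRNAs and for 11.1% of the 72 tested miRNAs with a mean of 1000 CPM or more, whose median was 25.8%. The second share compares it with miRNAs that are also abundant, for which counting error is small.

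**Figure D1:**
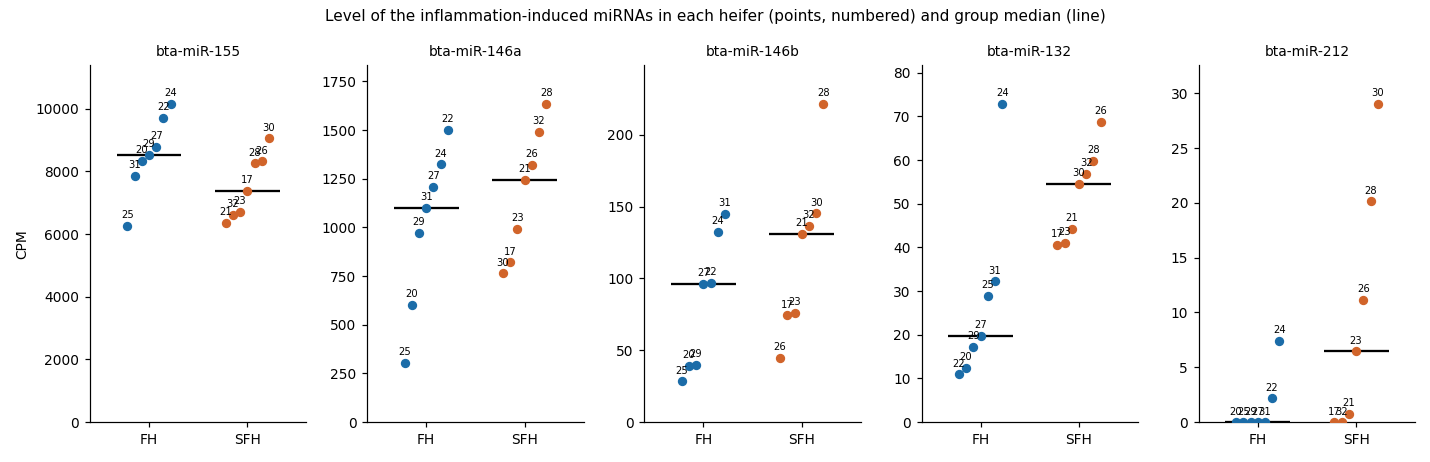
Level of each member in CPM (y axis, linear, from 0) in the 7 FH (blue) and 7 SFH (orange) heifers, numbered by animal, with the group median as a line. bta-miR-155 spans 1.62-fold over all heifers, while 6 of 7 FH heifers lie below every SFH heifer for bta-miR-132 and FH heifer 24 lies above them all.

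Of the pair of negative regulators, bta-miR-146a was the more abundant, at rank 69. It was at 304 CPM in the lowest, 1102 CPM in the median and 1500 CPM in the highest FH heifer, and at 765, 1244 and 1636 CPM in SFH. The groups overlapped, and the low end was made by FH heifers 25 and 20, at 304 and 602 CPM, lower than any animal of SFH. The fit gave a log2 fold change of 0.17 with a standard error of 0.28 (edgeR, adjusted p = 0.963), and leaving out 1 heifer at a time gave 0.02 (without FH heifer 25) to 0.28.

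bta-miR-146b was at rank 153, with 28.5 CPM in the lowest, 96.4 CPM in the median and 145 CPM in the highest FH heifer, and 45.0, 131 and 222 CPM in SFH. FH heifer 25 was again the lowest of its group, and SFH heifer 28 was the highest of its group for both miRNAs. The range over 14 heifers was 7.77-fold for bta-miR-146b and 5.38-fold for bta-miR-146a, several times that of bta-miR-155. The log2 fold change of bta-miR-146b was 0.49 with a standard error of 0.42 (edgeR, adjusted p = 0.947), within the spread between heifers, and leaving out 1 heifer at a time gave 0.25 (without SFH heifer 28) to 0.66. Mature miR-146a and miR-146b are nearly identical in sequence, and how reads that match both were assigned is not given in the sources used here, so the level of the rarer bta-miR-146b is uncertain to that extent.

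bta-miR-132 was at rank 189. Its levels in FH were 10.9 CPM in heifer 22, 12.4 in heifer 20, 17.3 in heifer 29, 19.8 in heifer 27, 29.0 in heifer 25, 32.2 in heifer 31 and 73.0 in heifer 24. Those in SFH were 40.5 CPM in heifer 17, 41.0 in heifer 23, 44.3 in heifer 21, 54.6 in heifer 30, 56.8 in heifer 32, 59.8 in heifer 28 and 68.8 in heifer 26. All 7 animals of SFH exceeded the median of FH, and 6 of 7 FH heifers were below every SFH heifer, while FH heifer 24 was above them all. At least 6 heifers of 1 group lay beyond every heifer of the other for 2.05% of the tested miRNAs. The counts behind these levels were 20 to 137 per heifer in FH and 79 to 216 in SFH.

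The mean level of bta-miR-132 was 27.8 ± 21.4 CPM for FH and 52.3 ± 10.7 CPM for SFH (SD, n = 7 each). The log2 fold change was 0.86 with a standard error of 0.48, a 1.82-fold higher level in SFH, which did not pass the thresholds (edgeR, adjusted p = 0.890). By the exact permutation test of single miRNAs the difference was 1.08 on the log2 scale (p = 0.0134), against 6.16% of the 341 miRNAs with an unadjusted p of at most 0.05 in that test. After adjustment over all miRNAs tested it was not called (exact permutation test, adjusted p = 0.416).

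The estimate depended on FH heifer 24. Without this animal the log2 fold change was 1.29 (edgeR, p = 0.0159), past the thresholds, and the exact permutation test, with no overlap left between the groups, gave 1.35 (p = 0.000583, the smallest that the arrangements of the remaining heifers can give). Heifer 24 was the only FH heifer not below every SFH heifer, so leaving it out fixed this permutation p, which gives no separate support for a difference. With any other heifer left out, the log2 fold change was between 0.72 and 0.92 and did not pass, while the permutation difference kept a p of at most 0.0268 without adjustment. limma-voom gave 1.10 (p = 0.0276) on all 14 heifers.

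**Figure D2:**
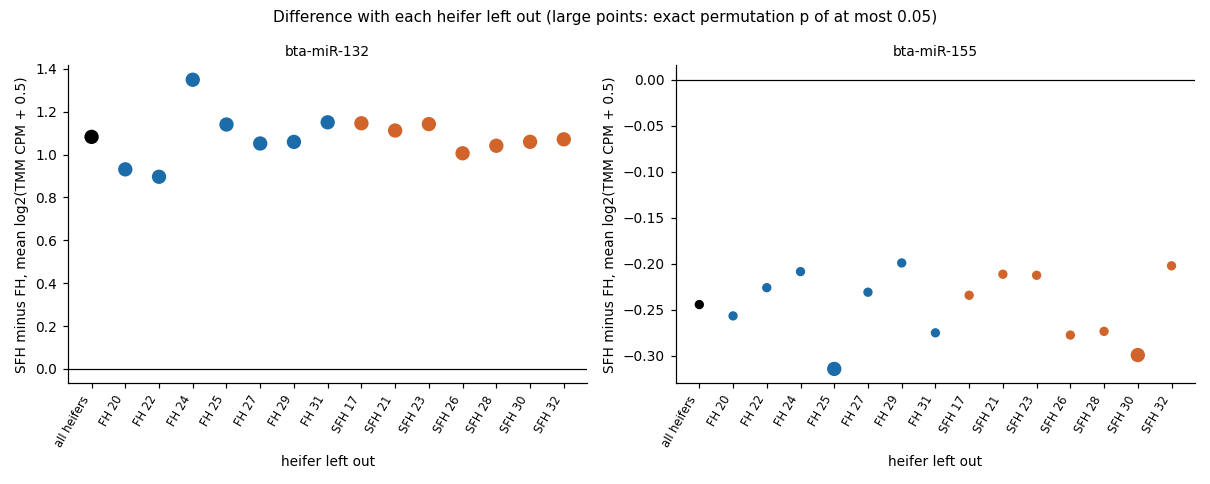
Difference in mean log2(TMM CPM + 0.5), SFH minus FH (y axis), for bta-miR-132 and bta-miR-155 with all heifers (black) and with each heifer left out in turn (blue for FH, orange for SFH). Large points have an exact permutation p of at most 0.05 without adjustment: all points of bta-miR-132, between 0.90 and 1.35, and only those without FH heifer 25 and SFH heifer 30 for bta-miR-155.

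bta-miR-212, the partner of bta-miR-132, was close to the limit of detection with 245 counts over all heifers. In FH it had 13 counts in heifer 24 (7.41 CPM), 4 counts in heifer 22 (2.19 CPM) and 0 in the other 5 animals. In SFH it had 115 counts in heifer 30 (29.1 CPM), 62 in heifer 28 (20.2 CPM), 29 in heifer 26 (11.1 CPM), 20 in heifer 23 (6.46 CPM), 2 in heifer 21 (0.751 CPM) and 0 in heifers 17 and 32. FH libraries had a count for 296 to 408 mature miRNAs and SFH libraries for 325 to 425. For bta-miR-212 a count was seen in 2 of 7 FH and 5 of 7 SFH heifers, and 3 SFH heifers were above every FH heifer. The exact permutation test gave a difference of 2.07 in mean log2(TMM CPM + 0.5) with p = 0.103, and without SFH heifer 17 or without SFH heifer 32, both at 0, the difference was 2.57 (exact permutation test, p = 0.0484 in each case). When the filter on low values was dropped, edgeR gave a log2 fold change of 2.87 with a standard error of 1.69 (edgeR, adjusted p = 0.375), a size that depends on the prior count because most FH heifers were at 0.

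Ratios between members within a library do not depend on how libraries are scaled. The ratio of bta-miR-155 to bta-miR-146a counts was 6.47 to 20.6 in FH, with a median of 7.68, and 4.43 to 11.8 in SFH, with a median of 6.30. The groups overlapped, and the mean log2 ratio differed by −0.52 (SFH minus FH, exact two-sided permutation test, p = 0.114, 3 ratios tested). Without SFH heifer 30 this difference was −0.66 (exact permutation test, p = 0.0344). The ratio of bta-miR-146b to bta-miR-146a had a median of 0.0799 in FH and 0.0917 in SFH, with a difference of 0.26 on the log2 scale (exact permutation test, p = 0.487). With 1 heifer left out this difference was 0.08 (without SFH heifer 30) to 0.50 (without SFH heifer 26), and it was 0.10 without FH heifer 29 and 0.16 without SFH heifer 28. The ratio of bta-miR-132 to bta-miR-212, in which 7 heifers rest on 0 counts of bta-miR-212, differed by −1.98 (exact permutation test, p = 0.160).

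The heifers of SFH varied less than those of FH in bta-miR-132 and bta-miR-146a by estimate. The SD of log2(TMM CPM + 0.5) was 0.91 in FH and 0.32 in SFH for bta-miR-132, a log2 ratio of SDs of −1.52, and 0.80 and 0.43 for bta-miR-146a, a log2 ratio of −0.91. Neither difference passed its test (exact permutation tests, p = 0.118 and p = 0.256). Without FH heifer 25 the log2 ratio for bta-miR-146a was −0.11 (exact permutation test, p = 0.932), so its lower spread in SFH rested on this animal, and without FH heifer 24 that for bta-miR-132 was −0.99 (exact permutation test, p = 0.0746). On the deposited CPM, without TMM factors, the ratio for bta-miR-132 was −1.65 (exact permutation test, p = 0.0315). bta-miR-212 went the other way with SDs of 1.61 and 2.51 (log2 ratio 0.64, exact permutation test, p = 0.152), and without FH heifer 24 the log2 ratio was 1.37 (exact permutation test, p = 0.0134). A lower SD in SFH was the rule in these libraries: it was found for 218 of the 341 tested miRNAs (63.9%), with a median log2 ratio of −0.16.

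Other miRNAs known to rise or fall with leukocyte activation were compared next. Of 10 miRNAs raised on activation, 8 were tested and 0 passed the thresholds, with 4 higher and 4 lower in SFH by estimate and a median log2 fold change of −0.08 beside 0.06 over all miRNAs tested. This median was −0.21 to 0.01 with 1 heifer left out and 0.03 with limma-voom, so its sign was not stable. bta-miR-187 had no count and bta-miR-182, with 138 counts in all, was filtered. bta-miR-21-5p, the most abundant of them and induced in macrophages, was at 27035 to 78395 CPM in FH and 39286 to 87996 CPM in SFH (log2 fold change 0.16, standard error 0.21, edgeR, adjusted p = 0.947).

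bta-miR-125a and bta-let-7e, which together with bta-miR-99b form 1 cluster in mammals, had log2 fold changes of −0.50 and −0.41 (edgeR, adjusted p = 0.890 for both), whereas bta-miR-99b had 0.31 (edgeR, adjusted p = 0.947). Without SFH heifer 26, 2 miRNAs of the list passed the thresholds, bta-miR-125a at −0.75 (edgeR, adjusted p = 0.438) and bta-let-7e at −0.53 (edgeR, adjusted p = 0.744). Of 4 miRNAs lowered on activation or differentiation, bta-miR-150, bta-miR-342, bta-miR-223 and bta-miR-125b, all were tested and 0 passed, with log2 fold changes of −0.14 to 0.22 and a median of 0.06, whose sign was not stable either (−0.08 to 0.15 with 1 heifer left out, −0.03 with every precursor entry kept).

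**Figure D3:**
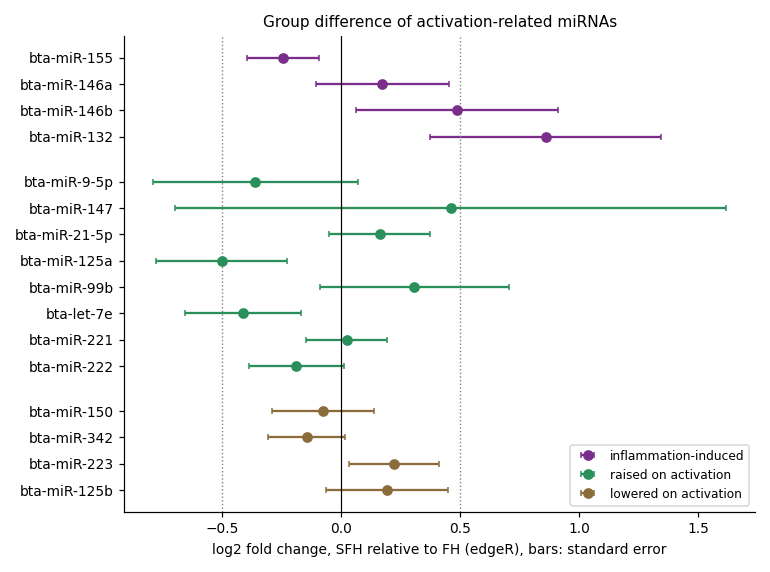
Log2 fold change of SFH relative to FH (x axis, points) with its standard error (bars) from the edgeR fit, for the 4 tested members and for tested miRNAs known to be raised or lowered on activation. Dotted lines mark the fold change threshold of 0.5, and 0 of the miRNAs shown passed both thresholds.

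Co-variation asks whether heifers high in 1 of these miRNAs were also high in the others. Correlations were computed on log2(TMM CPM + 0.5) over 14 heifers for 10 pairs, with permutation tests of 100000 resamples and adjustment over the 10. An unadjusted p of at most 0.05 was reached by 2 of 10 pairs and an adjusted one by 0. An absolute r of at least 0.55, that of the weaker of these 2 pairs, was found for 7.58% of all 57970 pairs of tested miRNAs.

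bta-miR-146a and bta-miR-146b gave Pearson's r = 0.65 (permutation p = 0.00925, adjusted p = 0.0925) and Spearman's rho = 0.42 (permutation p = 0.140, adjusted p = 0.350). Without FH heifers 20 and 25, the animals farthest from the median of bta-miR-146a, r was 0.20 (permutation p = 0.536), so the relation rested on these 2 animals, which were low in both miRNAs. Within FH, which holds both, r was 0.80, and within SFH 0.29. With 1 heifer left out r was 0.45 to 0.75, and its unadjusted permutation p stayed at or under 0.05 in 13 of 14 cases. The exception was FH heifer 25, without which r was 0.45 (permutation p = 0.121).

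bta-miR-132 and bta-miR-212 gave r = 0.55 (permutation p = 0.0415, adjusted p = 0.207) and rho = 0.66 (permutation p = 0.0125, adjusted p = 0.125). Without FH heifers 20 and 22, r was 0.73 (permutation p = 0.00926). With 1 heifer left out r was 0.50 to 0.70, and its unadjusted permutation p stayed at or under 0.05 in 5 of 14 cases, being above it without FH heifers 20, 24, 25, 27 or 29 or SFH heifers 23, 26, 28 or 30. By TMM CPM, the 4 heifers with most bta-miR-132 (FH 24 and SFH 26, 28 and 30) all had a count of bta-miR-212. SFH heifer 32, next in order, had none, and on deposited CPM it was above SFH heifer 30 (56.8 and 54.6 CPM). The pooled value includes the difference between the groups. With each value centred on its group mean r was 0.37 (permutation p = 0.198), and within groups it was 0.42 in FH and 0.56 in SFH, neither with an exact permutation p of at most 0.05 (p = 0.333 and p = 0.186).

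bta-miR-155 and bta-miR-146a, the promoter and the brake, gave r = 0.32 (permutation p = 0.279, adjusted p = 0.473) and rho = 0.21 (permutation p = 0.474, adjusted p = 0.593). Within FH r was 0.83 (exact permutation p = 0.0256, adjusted p = 0.128) and within SFH −0.10 (exact permutation p = 0.833). The difference between the groups in r, −0.93, did not pass its own permutation test (p = 0.207). Without SFH heifers 21 and 32 the pooled r was 0.58 (permutation p = 0.0453). bta-miR-155 and bta-miR-212 gave r = 0.28 over all heifers (permutation p = 0.331, adjusted p = 0.473), 0.47 within FH (exact permutation p = 0.286) and 0.81 within SFH (exact permutation p = 0.0488, adjusted p = 0.464). With values centred on the group means r was 0.65 (permutation p = 0.0125, not adjusted).

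**Figure D4:**
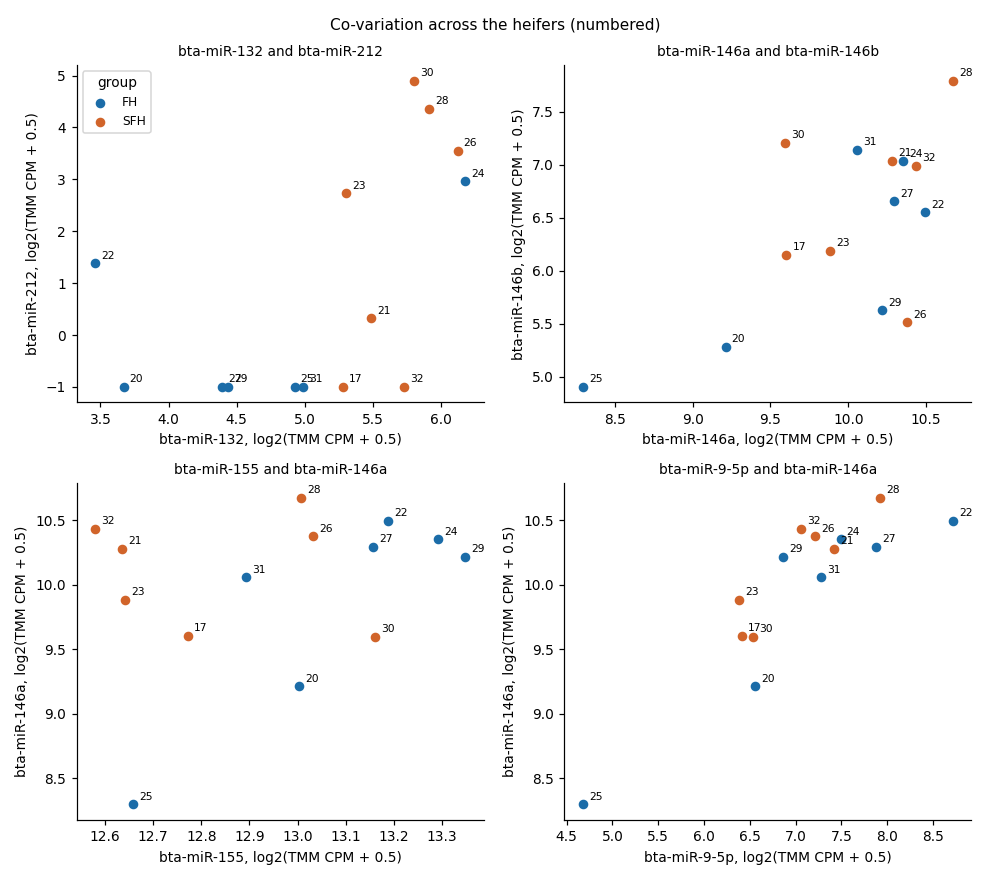
Paired values of log2(TMM CPM + 0.5) in the 14 heifers (blue FH, orange SFH, numbered) for 4 pairs of miRNAs. FH heifers 20 and 25 form the low end of bta-miR-146a against bta-miR-146b (r = 0.65 with them, 0.20 without), and the 7 heifers with no count of bta-miR-212 lie on 1 horizontal line.

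Each member was also set against bta-miR-223, bta-miR-150, bta-miR-451 and the log2 total count, 20 relations in all, as readings of neutrophils and monocytes, lymphocytes, red cells and depth. The other lymphocyte markers, bta-miR-342 and bta-miR-181a, were not set against the members. Over the 14 heifers 0 of 20 reached an unadjusted permutation p of at most 0.05. The strongest was bta-miR-155 with bta-miR-150 at r = 0.51 (permutation p = 0.0648, adjusted p = 0.722) and rho = 0.54 (permutation p = 0.0504, adjusted p = 0.728). Without SFH heifers 21 and 32 it was 0.30, while without FH heifer 24 or FH heifer 27 alone it was 0.60 and 0.67 (permutation p = 0.0305 and p = 0.0130, not adjusted). Within SFH it was 0.87 (exact permutation p = 0.00873, adjusted p = 0.0873) and within FH 0.09, a difference of 0.78 that did not pass its permutation test (p = 0.0734).

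Both miR-146 miRNAs ran against bta-miR-223 by estimate, bta-miR-146a with r = −0.43 (permutation p = 0.118, adjusted p = 0.789) and rho = −0.50, and bta-miR-146b with r = −0.50 (permutation p = 0.0722, adjusted p = 0.722) and rho = −0.39. With values centred on the group means these were −0.55 (permutation p = 0.0377) and −0.67 (permutation p = 0.0108), without adjustment. Leaving out FH heifer 25 gave −0.59 for bta-miR-146a (permutation p = 0.0358), and leaving out SFH heifer 30 gave −0.67 for bta-miR-146b (permutation p = 0.0137). Within SFH, bta-miR-146a gave −0.86 (exact permutation p = 0.0256, adjusted p = 0.171), and within FH −0.43 (exact permutation p = 0.343). For bta-miR-146b, r was −0.88 within FH (exact permutation p = 0.0210, adjusted p = 0.238) and −0.38 within SFH (exact permutation p = 0.387). Neither difference between the groups in r passed its permutation test (p = 0.128 and p = 0.130). Whether a changing share of neutrophils had a part in the level of these miRNAs was not tested.

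bta-miR-132, the member with the most separated groups, gave r of −0.12 with bta-miR-223, −0.14 with bta-miR-150 and −0.04 with bta-miR-451 over the 14 heifers. In the same order, r was −0.57, −0.41 and −0.72 within FH and −0.25, 0.58 and 0.09 within SFH, where the smallest exact permutation p was 0.0611, for bta-miR-451 in FH. Its r with the log2 total count was −0.11, and −0.71 without FH heifers 20 and 22 (permutation p = 0.0123, not adjusted), the animals with least bta-miR-132. When depth, as the log2 total count, was added to the edgeR fit, bta-miR-132 had a log2 fold change of 0.83. The part of depth in this difference was otherwise not tested. bta-miR-212 gave −0.77 with the log2 total count in FH and 0.89 in SFH (exact permutation p = 0.0238 and p = 0.00794, adjusted p = 0.238 and 0.0873), with most FH heifers at a count of 0.

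**Figure D5:**
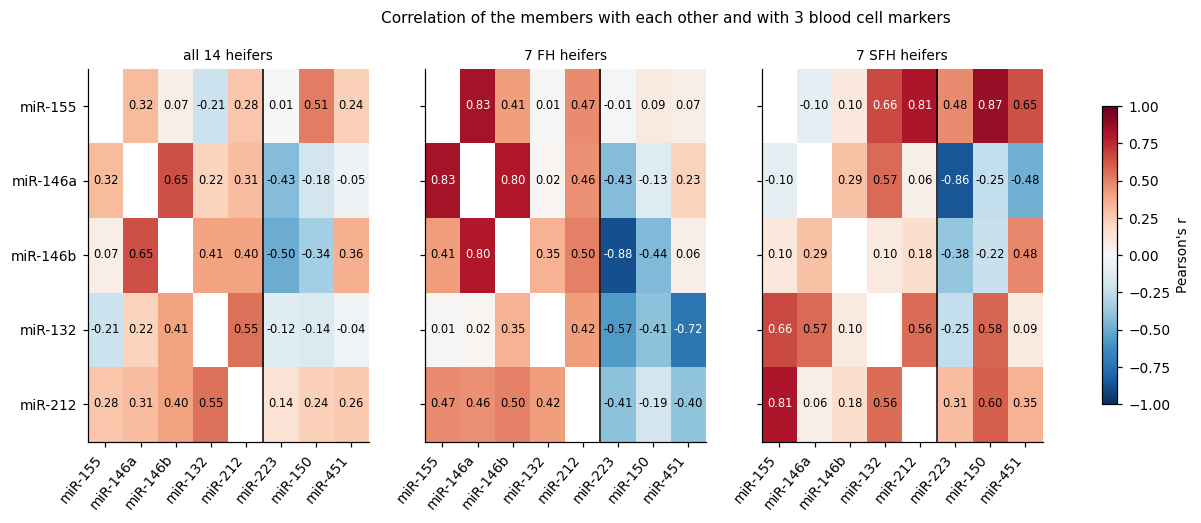
Pearson's r of log2(TMM CPM + 0.5) between the 5 members (left of the black line) and of each member with bta-miR-223, bta-miR-150 and bta-miR-451 (right of it), over 14 heifers, 7 FH and 7 SFH heifers. The pooled values lie between −0.50 and 0.65, and values within groups of 7 reach −0.88 and 0.87.

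For each member the 3 tested miRNAs with the highest Spearman's rho over the 14 heifers were found among all 341, as a description. These miRNAs were picked for their likeness, and they share the libraries with the member. The miRNAs nearest to bta-miR-155 were bta-let-7g (rho 0.80), bta-miR-26b (0.75) and bta-miR-1388-3p (0.75), of which bta-let-7g and bta-miR-26b were also abundant, with means of 50411 and 43050 CPM.

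The miRNAs nearest to bta-miR-146a were bta-miR-3613a (rho 0.86), bta-miR-9-5p (0.82) and bta-miR-2285bc (0.82). bta-miR-9-5p, which is known to be induced with miR-146a in monocytes and neutrophils by microbial products, is on the list of miRNAs raised on activation. It was at 24.3 CPM in FH heifer 25, the animal lowest in bta-miR-146a. FH heifer 22, the highest of FH in both miRNAs, had 437 CPM, and SFH heifer 28, the highest of SFH in both, 242 CPM. The all-leukocyte marker bta-miR-142-5p had the same lowest and highest FH heifers (5186 and 17381 CPM) and the same highest SFH heifer (20623 CPM). Among the other tested miRNAs raised on activation, bta-miR-21-5p was also lowest of FH in heifer 25. There, bta-miR-125a, bta-let-7e, bta-miR-221 and bta-miR-222 were the highest of FH, and bta-miR-147 and bta-miR-99b were neither. A common cause was not tested. Pearson's r of bta-miR-9-5p with bta-miR-146a was 0.89 over all heifers, 0.78 without FH heifers 20 and 25, 0.93 within FH and 0.91 within SFH. An r as high was found for 0.0673% of all pairs of tested miRNAs. Because bta-miR-9-5p was picked for its high rho in these same heifers, this share and the values within groups only describe the pair. The group difference of bta-miR-9-5p was not called (log2 fold change −0.36, standard error 0.43, edgeR, adjusted p = 0.947).

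bta-miR-146b was nearest to bta-miR-2285k (rho 0.87), bta-miR-660 (0.86) and bta-miR-2285cj (0.85), and not to bta-miR-146a. bta-miR-132 had the weakest neighbours among the members, bta-miR-11971 (rho 0.64), bta-miR-2284h-5p (0.58) and bta-miR-130a (0.57), and the last fell from r = 0.56 to 0.01 without FH heifers 20 and 22. The untested bta-miR-212 was nearest to bta-miR-378c (rho 0.71), bta-miR-25 (0.69) and bta-miR-378 (0.68).

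By level, the order of the members was bta-miR-155, bta-miR-146a, bta-miR-146b, bta-miR-132 and bta-miR-212 by mean CPM in both groups. bta-miR-155 exceeded bta-miR-146a, and bta-miR-146a exceeded bta-miR-146b, in all 14 heifers. The ranges of bta-miR-146b and bta-miR-132 overlapped in both groups, and bta-miR-132 was above bta-miR-146b in SFH heifer 26 (68.8 and 45.0 CPM) and, barely, in FH heifer 25 (29.0 and 28.5 CPM). Differences in level between miRNAs also carry the ligation preference of the library kit, which was not measured.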

How the data were processed

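Small RNA of PWBC from 14 heifers (7 FH, 7 SFH) was analysed. The authors trimmed the reads, aligned them with miRDeep2 and deposited raw, unnormalized counts for each pair of mature and precursor miRNA. The deposited CPM of 341 miRNAs equal the counts divided by the total of these miRNAs (checked in all heifers, largest difference 4.66e-10). The submitters' processing notes name edgeR 3.28.1 and DESeq2 1.26.0. CPM in the text are on this deposited scale. bta-miR-212 is absent from the deposited CPM and was put on the same scale.

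Of 1207 entries, the one with the highest total was kept per mature name. miRNAs at 1 CPM or more in 7 or more heifers were normalized by TMM and tested with edgeR 4.0.16 in R 4.3.3 (quasi-likelihood, group as the only term, Benjamini-Hochberg adjustment over 341 miRNAs). DESeq2 1.42.0 and limma 3.58.1 were alternatives. Single values were compared by exact two-sided permutation on log2(TMM CPM + 0.5), and correlations by 100000 resamples or, within groups, all 5040 permutations, with scipy 1.17.1, numpy 2.4.6 and pandas 2.3.3 in Python 3.11.15. All fits were tested on simulated data.

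The members and lists were chosen with earlier results of these data known. Named miRNAs are the members, the activation and cell type lists, and the 3 miRNAs of highest rho with each member, bta-miR-212 included although it did not pass the filter. The tests of differences in r between groups were added after the data were seen. The labels name no batch. Totals were 1754971 to 5468341 counts, no pair of libraries was identical, and r between heifers across miRNAs was 0.866 to 0.943. Gene neighbours come from RefSeq ARS-UCD2.0, not the build of the files. Mature sequences were not used here.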

Additional observations from a re-analysis of the deposited data

Results flagged for a closer look

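In bta-miR-132, FH heifer 24 at 73.0 CPM stood apart from the other 6 FH heifers, with a gap to the next heifer of 0.657 of the whole range of its group, above Dixon's 95% critical value of 0.568. The same heifer stood apart in bta-miR-212, also on CPM, at 7.41 CPM with a gap of 0.705 of the range, in a group where 5 animals had no count. In FH, heifer 24 was thus the highest in both miRNAs of the pair and, on deposited CPM, also in bta-miR-155, at 10170 CPM. By TMM CPM, FH heifer 29 was the highest in bta-miR-155 (10428, against 10029 in heifer 24). The library of heifer 24 had a median r of 0.912 with the other heifers and a TMM factor of 1.01, both inside the range of the other libraries. It was the smallest of all the libraries, with 1754971 counts. Of 16 groups of 7 heifers examined, chance alone would flag about 1 in 20. A cause was not tested.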

How the results depend on the processing

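The 13 miRNAs past the thresholds became 23 with limma-voom, 126 with no filter on low counts, 20 with every precursor entry kept and 11 to 22 with 1 heifer left out (22 without FH heifer 24, 20 without SFH heifer 26). Counts of adjusted calls were 0, except 2 with DESeq2 and 1 with every precursor entry kept. The log2 fold change of bta-miR-132 passed with limma-voom (1.10) and was 0.72 to 1.29 with 1 heifer left out. In the list of miRNAs raised on activation, 1 miRNA passed with no filter, 1 with every precursor entry kept, and 0 to 2 with 1 heifer left out.

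With 1 heifer left out, differences by permutation were −0.31 to −0.20 for bta-miR-155 and 1.59 to 2.58 for bta-miR-212, the log2 ratio of bta-miR-155 over bta-miR-146a differed by −0.66 to −0.33, and log2 ratios of SDs were −0.30 to 0.43 for bta-miR-155, −1.06 to −0.11 for bta-miR-146a, −0.50 to 0.034 for bta-miR-146b, −1.77 to −0.99 for bta-miR-132 and 0.54 to 1.37 for bta-miR-212. The ratio of SDs passed for bta-miR-132 on the deposited CPM scale (−1.65) and for bta-miR-212 with a pseudocount of 5 (1.21). The correlation of bta-miR-155 with bta-miR-132 changed sign on deposited CPM (0.0087) and when centred on group means (0.16), and that of bta-miR-155 with bta-miR-146b was −0.13 to 0.22 with 1 heifer left out. Member pairs at an unadjusted p of at most 0.05 were 0 to 3 with 1 heifer left out (0 without FH heifer 25), and marker relations were 1 on deposited CPM, 2 when centred and 0 to 1 with 1 heifer left out. The causes were not tested. Of 726 recomputed values, 662 kept their direction and their side of the threshold or, for counts, stayed close to the first value.

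No paired analysis was possible because the groups share no heifer number. The 0 to 115 counts of bta-miR-212 per heifer limit any statement on its level. Correlations within groups rest on 7 animals.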
